A study of Mus musculus with 6 samples.

Results

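The costimulatory receptors of T cells described here are 7 genes: the tumour necrosis factor receptor family members Tnfrsf9 (CD137), Tnfrsf4 (OX40), Tnfrsf18 (GITR), Tnfrsf1b (TNFR2) and Cd27, and the immunoglobulin family members Icos and Cd28. They were chosen by gene symbol, each symbol matched a single Ensembl gene, and they are 7 of the 30406 genes that every library measured. Single-cell RNA was read from live CD45-positive cells of mammary tumours grown in female mice from Py8119, a mouse mammary carcinoma line. The KO-host libraries were intact KO mice (Mtdh knockout), KO marrow in KO host and WT marrow in KO host. The WT-host libraries were intact WT mice, KO marrow in WT host and WT marrow in WT host, where WT is wild type for Mtdh. Transplanted hosts had been irradiated, received marrow 8 weeks before the tumour cells, and all tumours grew for 4 weeks. Each group is 1 library, the number of mice behind a library is not given, and the 3 libraries of a host genotype are therefore different groups rather than replicates. A p-value of a host or marrow fit sets the effect against the disagreement among libraries after additive terms for transplantation, host and marrow. In edgeR the estimate of that disagreement for a gene is drawn towards that of the other genes. The tests between gates and of shares are described where they are used.

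Costimulatory receptors give a T cell that has met its antigen a further signal to divide and survive. Cd28 is present on resting T cells and binds Cd80 and Cd86. Icos is its inducible relative. Tnfrsf9, Tnfrsf4 and Tnfrsf18 appear on activated T cells, and the last pair is also carried at rest by regulatory T cells (Treg). They recruit TRAF adaptors and switch on NF-kB. Tnfrsf1b binds TNF, and Cd27, found on naive and memory T cells, binds Cd70. Mtdh encodes metadherin, a protein studied for its role in breast cancer.

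T and NK cells were selected by UMIs (unique molecules counted) of marker genes other than the 7 receptors, and 2879 of 37992 cells passed a gate. CD8 T cells were the most numerous, with 303 (intact), 1210 (KO marrow) and 82 (WT marrow) cells in KO hosts, and 73 (intact), 231 (KO marrow) and 136 (WT marrow) in WT hosts. Over the 6 libraries there were 342 Foxp3-negative CD4 T cells, 170 Treg cells, 96 gamma-delta T cells and 236 NK cells. Libraries held between 85616443 and 142779550 UMIs. Cd3e stood at 442 CPM or more in each T cell gate with at least 10 cells, and at most 6.6 CPM in NK cells. CPM is a UMI count divided by the UMIs of that gate in that library and scaled by 1e6. The T gates required CD3 UMIs and the NK gate limited them, so these Cd3e levels follow from the gates and do not check them. Ikzf2, a Treg transcription factor not used for gating, stood between 754 and 2440 CPM in Treg cells of the 5 libraries with at least 10 of them, and between 61.9 and 318 CPM in CD4 T cells. Foxp3-negative means that no Foxp3 UMI was counted, so a Treg cell with uncounted Foxp3 would fall in the CD4 T gate. A stricter gate without Ikzf2 or Il2ra UMIs kept 40 of 68 CD4 T cells in KO marrow in KO host. In intact KO it kept 81 of 99. Ptprc, which encodes CD45, was found in every gate. Mtdh itself checked the marrow labels: in CD8 T cells it lay between 14.6 and 18.5 CPM in the 3 libraries with KO marrow cells and between 72.4 and 84.4 CPM in the 3 with WT marrow cells. Treg cells broke this pattern in 1 library, given below with their result. Of 40205 barcode sequences 213 occurred in more than 1 library, and 37 gated cells carried such a barcode.

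Of the receptor genes 4 lie on mouse chromosome 4. In the GENCODE annotation of mm10, Tnfrsf4 (ENSMUSG00000029075) spans chr4:156013843-156016612 on the plus strand and Tnfrsf18 (ENSMUSG00000041954) follows it at chr4:156026164-156028895 on the same strand. Tnfrsf9 (ENSMUSG00000028965, chr4:150914562-150946102, plus) and Tnfrsf1b (ENSMUSG00000028599, chr4:145213463-145246870, minus) lie elsewhere on the chromosome. Cd28 (ENSMUSG00000026012, chr1:60716800-60773359, plus) neighbours Icos (ENSMUSG00000026009, chr1:60977927-61000320, plus), and Cd27 (ENSMUSG00000030336, chr6:125232622-125237010, minus) stands alone.

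The promoters of the activation-induced receptors Tnfrsf9, Tnfrsf4 and Tnfrsf18 are printed because these genes were high in the same cells, the Treg cells. Icos was also high there, but no promoter window was available for it. Each line gives the 250 bases before a RefSeq start (GRCm38.p6, plus strand, 5′ to 3′), and capitals mark matches on either strand to the NF-kB pattern (3 G, any 5 bases, 2 C), TGANTCA (AP-1) or GGAAA (the NFAT core). For Tnfrsf9 the later of its listed starts is shown, chr4:150927749-150927998. The windows of Tnfrsf4 and Tnfrsf18 are chr4:156013445-156013694 and chr4:156026072-156026321. By the GENCODE spans above, the shown Tnfrsf9 window lies within the gene, and the Tnfrsf18 window runs past the start of its gene.
Tnfrsf9: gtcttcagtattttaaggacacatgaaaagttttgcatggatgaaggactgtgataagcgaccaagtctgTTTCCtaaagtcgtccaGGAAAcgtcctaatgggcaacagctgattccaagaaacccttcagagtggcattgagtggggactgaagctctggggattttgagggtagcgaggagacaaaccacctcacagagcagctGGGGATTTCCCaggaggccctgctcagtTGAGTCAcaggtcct
Tnfrsf4: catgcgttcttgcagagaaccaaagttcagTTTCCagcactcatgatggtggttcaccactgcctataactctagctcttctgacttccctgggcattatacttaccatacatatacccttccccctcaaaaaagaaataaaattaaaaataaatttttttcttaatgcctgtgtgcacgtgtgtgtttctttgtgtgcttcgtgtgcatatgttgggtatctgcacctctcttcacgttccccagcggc
Tnfrsf18: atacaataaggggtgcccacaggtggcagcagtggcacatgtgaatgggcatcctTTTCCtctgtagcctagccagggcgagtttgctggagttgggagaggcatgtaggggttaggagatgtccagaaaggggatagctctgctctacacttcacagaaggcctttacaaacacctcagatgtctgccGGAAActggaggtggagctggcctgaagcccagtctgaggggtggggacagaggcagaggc
The Tnfrsf9 window held 2 overlapping matches to the NF-kB pattern, 1 AP-1 match and 3 NFAT core matches, counting 1 that lies within the NF-kB stretch. The Tnfrsf4 window held 1 NFAT core match and the Tnfrsf18 window held 2, with no match to the other patterns in either. The window of the earlier Tnfrsf9 start (chr4:150919905-150920154) held 2 NFAT core matches and no NF-kB or AP-1 match. The windows of Tnfrsf1b and Cd27, also scanned, held 3 and 2 matches to the NF-kB pattern and no AP-1 match, and that of Cd27 held 1 NFAT core match. Of 32851 promoter windows of this length, 45.8% held the NF-kB pattern, 6.75% the AP-1 pattern and 55.6% the NFAT core, so only AP-1 is uncommon. These matches are descriptions of sequence.

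Treg cells stood high for Tnfrsf9, Tnfrsf4, Tnfrsf18 and Icos, although NK cells could not be told from them for Tnfrsf9 nor gamma-delta T cells for Icos. NK cells stood high for Tnfrsf9 alone. UMIs were summed per gate and library and compared between gates with edgeR's quasi-likelihood test, with the library as a block. Gamma-delta T cells entered this fit through the intact libraries only, since the transplanted ones had 4 to 9 such cells each, and Treg cells of WT marrow in KO host (4 cells) were left out. Of 70 tests (7 receptors in 10 pairs of gates), 48 passed an adjusted p of 0.05. Over all 7257 genes, the share that passed was 10.6% for CD8 T against CD4 T cells, 16.4% for CD8 T against Treg, 6.02% for CD8 T against gamma-delta T, 17.2% for CD8 T against NK, 6.12% for CD4 T against Treg, 4.00% for CD4 T against gamma-delta T, 30.9% for CD4 T against NK, 6.30% for Treg against gamma-delta T, 27.9% for Treg against NK and 9.91% for gamma-delta T against NK.

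Tnfrsf4 divided the gates most sharply. In Treg cells it stood at 1648 CPM (intact) and 2111 (KO marrow) in KO hosts, and at 1779 (intact), 950 (KO marrow) and 2569 (WT marrow) in WT hosts. In CD4 T cells it ranged from 446 to 1192 CPM and in CD8 T cells from 28.2 to 232 CPM, so the 3 gates did not overlap except that the lowest Treg library lay below the highest CD4 one. Gamma-delta T cells gave 1 UMI of Tnfrsf4 in 96 cells and NK cells gave 11 in 236. At least 1 UMI was seen in 84.6% to 98.1% of Treg cells in those 5 libraries and in 35.4% to 82.4% of CD4 T cells. Macrophages, which should lack the gene, showed it in 0.854% to 4.42% of cells at median depths of 12524.5 to 19434.5 UMIs. The NK share was 0 to 5.41% by library. In WT marrow in WT host NK cells held 10.9 CPM, against 1.20 CPM in macrophages, so the NK UMIs there are not read as background. In the other libraries NK cells held 0 to 5.42 CPM, against 0.641 to 4.10 CPM in macrophages. CD8 T cells were below Treg cells (log2 fold change -3.84, SE 0.40, adjusted p = 2.6e-06) and below CD4 T cells (-2.45, SE 0.37, adjusted p = 0.00031).

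Tnfrsf18, the neighbour of Tnfrsf4, followed the same order with a smaller span. In Treg cells it reached 1226 CPM (intact) and 1137 (KO marrow) in KO hosts, against 1164 (intact), 682 (KO marrow) and 1541 (WT marrow) in WT hosts. CD4 T cells held 412 to 957 CPM, CD8 T cells 84.5 to 437 CPM and NK cells 103 to 206 CPM. The log2 fold change was -2.05 for CD8 T against Treg cells (SE 0.21, adjusted p = 5.5e-08), -1.22 for CD8 T against CD4 T cells (SE 0.19, adjusted p = 0.00010) and 0.73 for CD8 T against NK cells (SE 0.20, adjusted p = 0.012). Over the 25 sums of a gate in a library, log2 levels of Tnfrsf4 and Tnfrsf18 had a Pearson r of 0.95, the highest of the 21 pairs of receptors. The sums share libraries and gates, so this r is a description.

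Tnfrsf9 was found in all the gates and was highest in Treg and NK cells. In Treg cells it stood at 1783 CPM (intact) and 1268 (KO marrow) in KO hosts, and at 1100 (intact), 848 (KO marrow) and 1557 (WT marrow) in WT hosts. NK cells held 604 to 1095 CPM with overlap between host genotypes, and the fit did not separate Treg from NK cells (log2 fold change 0.44, SE 0.29, adjusted p = 0.31). CD8 T cells lay below both, at -1.37 on the log2 scale against Treg cells (SE 0.30, adjusted p = 0.0033) and -0.93 against NK cells (SE 0.28, adjusted p = 0.028). CD4 T cells held 294 to 539 CPM, and the fit did not separate CD8 T from CD4 T cells (log2 fold change 0.10, SE 0.28, adjusted p = 0.89). Macrophages also carried Tnfrsf9, at 28.2 to 261 CPM. If the C1q transcripts seen in the T and NK gates stood for free macrophage RNA, that RNA would add at most 14.2 CPM of Tnfrsf9, 6.53 CPM of Tnfrsf1b and 0.522 CPM of any other receptor to a gate.

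Icos stood at 631 to 1584 CPM in Treg cells over 5 libraries, and gamma-delta T cells also stood high, with 980 CPM in intact KO and 439 CPM in intact WT. The fit did not separate these gates (Treg over gamma-delta T, 0.59, SE 0.24, adjusted p = 0.17). CD4 T cells held 439 to 631 CPM, CD8 T cells 118 to 292 CPM and NK cells 41.4 to 131 CPM. Gamma-delta T cells exceeded NK cells by a log2 difference of 2.96 (SE 0.23, adjusted p = 2.7e-11) and could not be told from CD4 T cells (CD4 T over gamma-delta T, -0.06, SE 0.23, adjusted p = 0.95). Icos was thus the 1 receptor for which CD8 T cells lay below gamma-delta T cells in a test that passed, at -1.50 (SE 0.22, adjusted p = 1.9e-05).

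Cd28 was carried by CD4 T, Treg and CD8 T cells more than by gamma-delta T and NK cells. CD4 T cells held 207 to 365 CPM, Treg cells 175 to 307 CPM in 5 libraries and CD8 T cells 123 to 186 CPM. NK cells held 26.2 to 83.2 CPM, and gamma-delta T cells 30.1 CPM in intact KO and 25.3 CPM in intact WT. CD8 T cells were below CD4 T cells by a log2 difference of -0.83 (SE 0.17, adjusted p = 0.00077) and above gamma-delta T cells by 2.72 (SE 0.39, adjusted p = 1.2e-05). The fit did not separate Treg cells from CD8 T cells (CD8 T over Treg, -0.29, SE 0.19, adjusted p = 0.37) or from CD4 T cells (CD4 T over Treg, 0.54, SE 0.20, adjusted p = 0.11).

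Cd27 reversed that order between the alpha-beta T cells: CD8 T cells, at 94.6 to 189 CPM, exceeded CD4 T cells, at 28.0 to 117 CPM, by a log2 difference of 0.75 (SE 0.19, adjusted p = 0.0067). Treg cells held 113 to 195 CPM in 5 libraries and did not differ from CD8 T cells in the fit (CD8 T over Treg, 0.06, SE 0.20, adjusted p = 0.92). Tnfrsf1b, the TNF receptor, overlapped between most gates. It lay between 58.1 and 153 CPM in CD8 T cells, 25.8 and 122 CPM in CD4 T cells, 128 and 307 CPM in Treg cells, 51.5 and 109 CPM in NK cells and 84.7 and 116 CPM in macrophages. Of its 10 pairs of gates 2 passed, both with Treg cells above: CD4 T against Treg at -0.95 (SE 0.26, adjusted p = 0.022) and Treg against NK at 0.99 (SE 0.26, adjusted p = 0.0037).

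**Figure D1:**
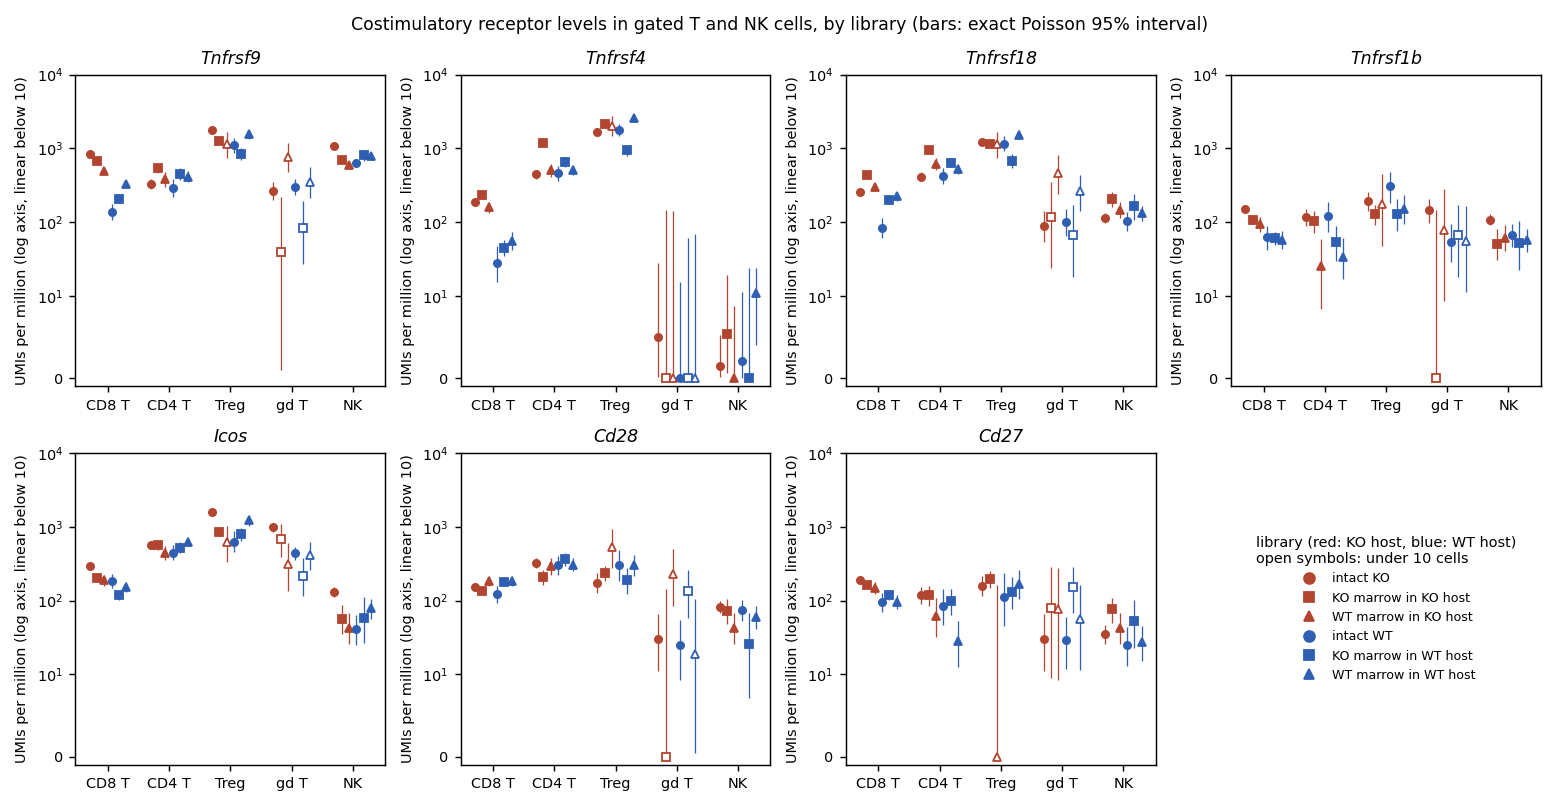
Levels of the 7 receptors in CPM (log axis, linear below 10) for 5 gates and 6 libraries, KO hosts in red to the left of WT hosts in blue, with exact Poisson 95% intervals that cover counting error only. Tnfrsf4 runs from 950 to 2569 in Treg cells with at least 10 cells to near 0 in gamma-delta T and NK cells, and open symbols mark libraries with under 10 cells.

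In CD8 T cells receptor levels differed with the genotype of the host. The question is whether Mtdh loss in the host, apart from Mtdh loss in the immune cells, goes with more or less of each receptor. Of the 7 receptors 3 were higher in KO hosts at an adjusted p under 0.05 (Tnfrsf4, Tnfrsf18 and Tnfrsf1b) and none was lower, where 1.91% of 8671 genes passed in either direction. The median log2 fold change over the 7 was 0.81, against -0.01 over all genes tested. In plain levels 6 of 7 receptors had all 3 KO hosts above all 3 WT hosts, which held for 8.22% of the 7436 genes with a mean of at least 10 CPM.

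Tnfrsf4 changed most. In CD8 T cells it stood at 191 CPM (intact), 232 (KO marrow) and 159 (WT marrow) in KO hosts, against 28.2 (intact), 45.1 (KO marrow) and 56.1 (WT marrow) in WT hosts. Every KO host lay above every WT host by more than the counting intervals of either. The fitted log2 fold change was 2.02, 4.07-fold (SE 0.23, edgeR adjusted p = 0.00010). Without the transplantation term, which leaves the intact and transplanted libraries on 1 scale, the fold change was nearly equal and the adjusted p was 0.43.

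Tnfrsf18 stood at 259 CPM (intact), 437 (KO marrow) and 299 (WT marrow) in KO hosts, against 84.5 (intact), 198 (KO marrow) and 225 (WT marrow) in WT hosts. The groups did not overlap, and the log2 fold change was 0.87 (SE 0.20, edgeR adjusted p = 0.039). Tnfrsf1b stood at 153, 109 and 93.8 CPM in those KO hosts, against 62.4, 60.4 and 58.1 CPM in those WT hosts, in the same order of libraries. Its log2 fold change was 0.81 (SE 0.20, edgeR adjusted p = 0.0498, just inside the threshold). DESeq2 called neither (adjusted p = 0.064 for Tnfrsf18 and 0.23 for Tnfrsf1b), and over 23 refits Tnfrsf18 was called in 12 and Tnfrsf1b in 7. Tnfrsf18 was not called without KO marrow in KO host (adjusted p = 0.12) or without KO marrow in WT host (0.69), and Tnfrsf1b was called in no fit that left out a library.

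Tnfrsf9 had the second largest difference and did not pass. It stood at 841 CPM (intact), 669 (KO marrow) and 501 (WT marrow) in KO hosts, against 139 (intact), 204 (KO marrow) and 332 (WT marrow) in WT hosts. The groups did not overlap, but the 3 WT hosts spread widely, and the log2 fold change was 1.44 (SE 0.47, edgeR adjusted p = 0.39). It was called in 10 of 23 refits. DESeq2 called it (adjusted p = 0.0030), as did edgeR when intact KO was left out (0.00031), or intact WT (0.00021), or WT marrow in KO host (3.1e-07), or WT marrow in WT host (0.00018) and in the 4 transplanted libraries alone (1.11, adjusted p = 0.019). It was not called without KO marrow in KO host (0.63) or without KO marrow in WT host (0.91, with a log2 fold change of 0.89).

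Icos, Cd27 and Cd28 did not pass. Icos stood at 292, 204 and 188 CPM in KO hosts (intact, KO marrow, WT marrow), against 185, 118 and 153 CPM in WT hosts (intact, KO marrow, WT marrow), 0.55 on the log2 scale (SE 0.18, edgeR adjusted p = 0.18). Cd27 stood at 189, 161 and 148 CPM, against 94.6, 117 and 95.8 CPM in the same order, 0.54 on the log2 scale (SE 0.18, edgeR adjusted p = 0.18). Neither overlapped between host genotypes, Icos by a margin of only a few CPM. Cd28 alone overlapped, at 154, 133 and 185 CPM in KO hosts against 123, 180 and 186 CPM in WT hosts.

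**Figure D2:**
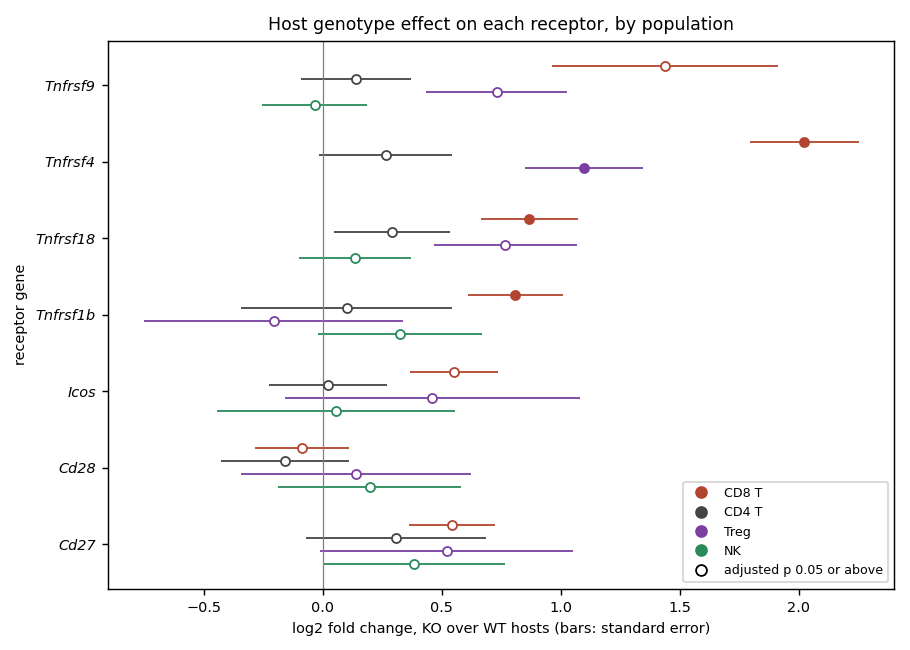
Fitted log2 fold change of each receptor, KO over WT hosts, with its standard error, in CD8 T, CD4 T, Treg and NK cells; filled symbols passed an adjusted p of 0.05. Tnfrsf4 at 2.02 in CD8 T cells is the farthest to the right, and the CD4 T and NK values lie between -0.16 and 0.38.

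The share of CD8 T cells with a UMI told the same for Tnfrsf4. It was 39.3% (intact), 53.1% (KO marrow) and 41.5% (WT marrow) in KO hosts, against 5.48% (intact), 12.6% (KO marrow) and 11.0% (WT marrow) in WT hosts. CD8 T cells were deeper in KO hosts (median 6847 to 8814 UMIs) than in WT hosts (5765 to 6291 UMIs), so each cell was also thinned to 1500 UMIs, which left out 52 of 2035 cells. The thinned shares were 16.1%, 23.1% and 16.5% in the KO hosts, against 2.93%, 5.31% and 5.68% in the WT hosts. For Tnfrsf9 the thinned shares were 50.1%, 55.8% and 39.9% in the KO hosts, against 13.7%, 19.7% and 27.8% in the WT hosts. Thinned shares did not overlap between host genotypes for Tnfrsf9, Tnfrsf4, Tnfrsf1b and Cd27, each at the exact permutation p of 0.1, the smallest that 3 libraries against 3 can give. They overlapped for Tnfrsf18, Icos and Cd28. How often thinned shares of other genes separate the host genotypes was not computed, so these counts are a description.

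**Figure D3:**
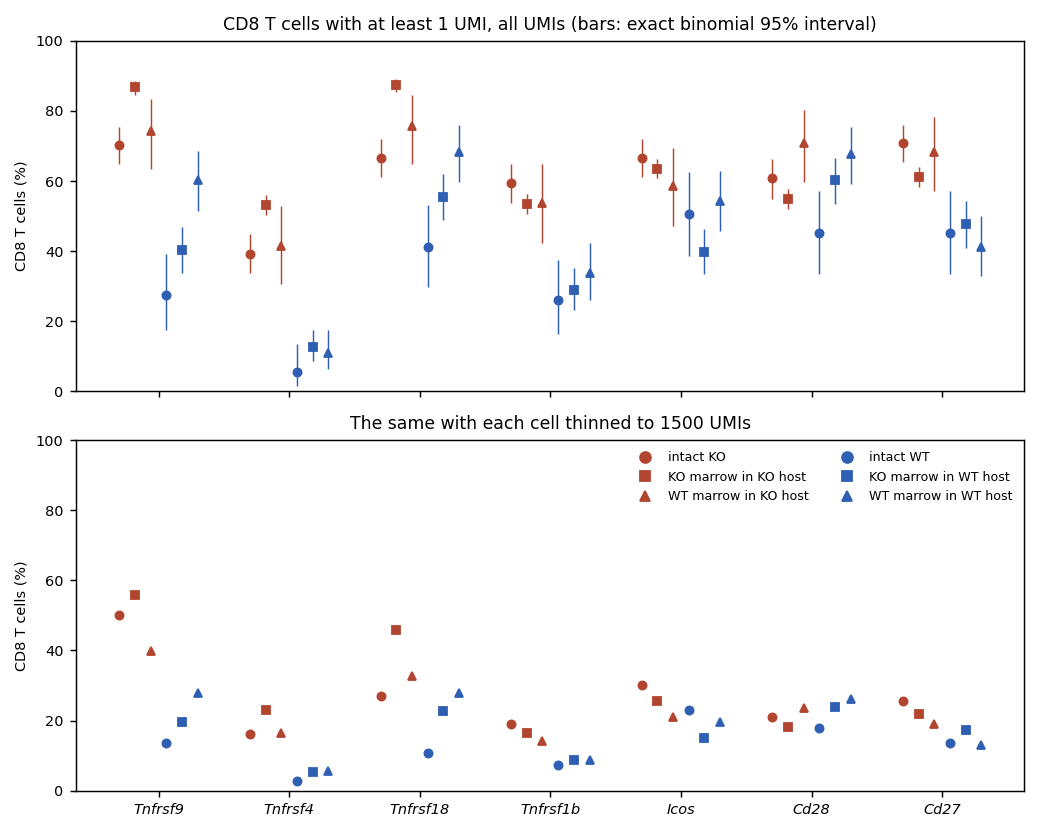
Percent of CD8 T cells with at least 1 UMI of each receptor in each library, from all UMIs with exact binomial 95% intervals (top) and after thinning each cell to 1500 UMIs (bottom); KO hosts are red and to the left of WT hosts in blue. Tnfrsf4 lies at 39.3% to 53.1% in KO hosts, against 5.48% to 12.6% in WT hosts before thinning.

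Single CD8 T cells carried more kinds of receptor in KO hosts. The mean number detected of the 7 was 4.34 (intact), 4.60 (KO marrow) and 4.43 (WT marrow) in KO hosts, against 2.41 (intact), 2.85 (KO marrow) and 3.37 (WT marrow) in WT hosts. Cells with 5 or more made up 49.2%, 57.1% and 47.6% in KO hosts, against 12.3%, 17.7% and 22.8% in WT hosts. These counts were not thinned, and the depth difference above goes with them. In intact KO, 54.9% of CD8 T cells with a Tnfrsf9 UMI also had one of Tnfrsf4, against 2.22% of those without Tnfrsf9. This pair and library are given as an example, and these shares were not thinned, so the depth of a cell bears on both receptors.

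CD8 T cells of KO hosts also differed in the share with a UMI of inhibitory receptor or cell division genes. Cells with a UMI of Pdcd1 or Havcr2, inhibitory receptors of chronically stimulated T cells, made up 65.0% (intact), 85.7% (KO marrow) and 72.0% (WT marrow) in KO hosts, against 28.8% (intact), 39.0% (KO marrow) and 50.7% (WT marrow) in WT hosts. Cells with a UMI of Mki67 or Top2a, genes of dividing cells, made up 34.3%, 39.9% and 43.9% in KO hosts, against 20.5%, 26.4% and 28.7% in WT hosts. Neither kind of share was thinned, and the greater depth of CD8 T cells in KO hosts goes with both. Within cells with Pdcd1 or Havcr2, Tnfrsf4 stood at 232, 241 and 218 CPM in KO hosts, against 102, 61.6 and 75.4 CPM in WT hosts, a log2 fold change of 1.64 (edgeR adjusted p = 0.0037). Tnfrsf9 in the same cells stood at 1042, 689 and 668 CPM in KO hosts, against 414, 393 and 429 CPM in WT hosts, and passed there at 0.87 (edgeR adjusted p = 0.0497, just inside the threshold).

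Cells with neither Pdcd1 nor Havcr2 numbered 106 (intact), 173 (KO marrow) and 23 (WT marrow) in KO hosts, against 52 (intact), 141 (KO marrow) and 67 (WT marrow) in WT hosts, and neither Tnfrsf9, Tnfrsf4, Tnfrsf18, Tnfrsf1b, Icos nor Cd27 passed in them. Tnfrsf4 there was 59.8, 157 and 8.41 CPM in KO hosts, against 0, 35.1 and 38.7 CPM in WT hosts, so the groups overlapped. The 0 stands for no UMI in the 52 cells of intact WT. The 8.41 CPM, on which the overlap depends, came from 23 cells with 237790 UMIs of all genes, so it rests on very few UMIs of Tnfrsf4. Tnfrsf18 in these cells had a log2 fold change of -0.029, where the whole gate gave 0.87. Among cells without Mki67 and Top2a, a subset added after the data were seen, Tnfrsf4 passed at 2.38 (edgeR adjusted p = 0.00024), Tnfrsf9 at 1.90 (0.029) and Tnfrsf18 at 1.09 (0.014). The differences between these subsets were not tested, and their part in the result of the whole gate was not tested. Summed UMIs of the macrophage genes C1qa, C1qb, C1qc and Lyz2 in the CD8 gate lay between 679 and 1553 CPM in KO hosts and between 1349 and 1577 CPM in WT hosts.

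**Figure D4:**
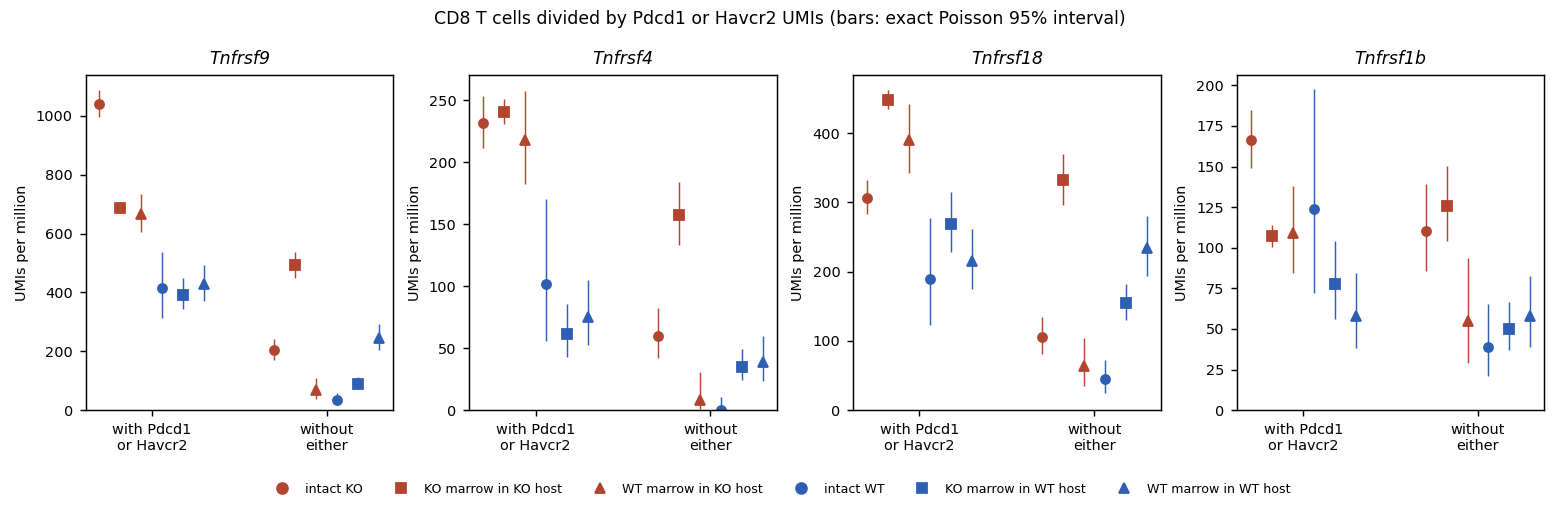
Levels of 4 receptors in CPM in CD8 T cells with and without a UMI of Pdcd1 or Havcr2, by library, with exact Poisson 95% intervals; KO hosts are red and to the left of WT hosts in blue. In cells with either gene, Tnfrsf9 lies at 668 to 1042 in KO hosts, against 393 to 429 in WT hosts, and without them the host genotypes overlap for Tnfrsf9, Tnfrsf4, Tnfrsf18 and Tnfrsf1b.

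In CD4 T cells no receptor passed with host genotype in edgeR, and none had an unadjusted p under 0.05; 0.0417% of 4801 genes passed. Tnfrsf4 stood at 446, 1192 and 511 CPM in KO hosts (intact, KO marrow, WT marrow), against 459, 655 and 513 CPM in WT hosts (intact, KO marrow, WT marrow). The host genotypes overlapped. NK cells gave the same count of 0 for the 6 receptors tested, also at unadjusted p, with 0.0876% of 5705 genes passing; their Tnfrsf9 stood at 1095, 697 and 604 CPM in KO hosts, against 627, 807 and 789 CPM in WT hosts. DESeq2 called no receptor in either gate.

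The difference between gates was tested in 1 model with an interaction of host genotype and gate. That model takes 1 spread per gene over all its gates, so its p-values do not measure the spread among the CD8 T libraries alone. Fitted alone, the CD8 T gate gave Tnfrsf9 a host effect with an SE of 0.47 that did not pass (edgeR adjusted p = 0.39). The host effect on Tnfrsf9 was smaller in CD4 T cells than in CD8 T cells by a log2 difference of -1.32 (SE 0.26, adjusted p = 0.012) and smaller in NK cells by -1.50 (SE 0.25, adjusted p = 0.0028). That on Tnfrsf4 was smaller in CD4 T cells by -1.76 (SE 0.34, adjusted p = 0.025). Of 21 such differences, for 7 receptors in CD4 T, Treg and NK cells against CD8 T cells, these 3 passed, where 0.446% of 8292 genes passed for CD4 T cells, 0.410% for Treg cells and 0.157% for NK cells. DESeq2 kept the Tnfrsf4 difference (adjusted p = 0.049) and not those of Tnfrsf9 (0.056 and 0.068). Without KO marrow in WT host the Tnfrsf9 differences were -0.88 in CD4 T cells (0.50) and -1.07 in NK cells (0.21), and without intact WT the CD4 T one had an adjusted p of 0.083.

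Treg cells gave a host call for Tnfrsf4 only, at 1.10 (SE 0.25, edgeR adjusted p = 0.0027), where 2.93% of 3784 genes passed. WT marrow in KO host, with 4 Treg cells, was left out, which leaves 5 libraries and 1 residual degree of freedom. The levels, 1648 and 2111 CPM in KO hosts against 1779, 950 and 2569 CPM in WT hosts, overlapped. DESeq2 did not call it (adjusted p = 1), and only 4 genes in all passed there. Among these 5 libraries only KO marrow in WT host differs in host and marrow genotype, so the fit tells the host and marrow terms apart through it alone. It was the lowest of them for Tnfrsf4, and its Treg cells held more Mtdh than the other KO marrow Treg cells. The part of the cells with Mtdh in this call was not tested.

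No receptor was called with marrow genotype in CD8 T cells (edgeR, 0.127% of 8671 genes passed; no receptor at unadjusted p under 0.05, and none by DESeq2). Fitted values lay between -0.08 and 0.30. CD4 T cells gave no call with marrow genotype (0.0625% of genes passed), 1 receptor at unadjusted p under 0.05, Cd27 at 0.84 (adjusted p = 1 by edgeR), and none by DESeq2. NK cells gave none (0.0526% of genes passed), none at unadjusted p and none by DESeq2. The marrow effect differed between gates for no receptor of 21 tests, where 0.0121% of genes passed for CD4 T, 0.0965% for Treg and 0.0241% for NK cells against CD8 T cells; 2 had an unadjusted p under 0.05, Tnfrsf4 and Tnfrsf18 in Treg cells, and DESeq2 called none.

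In Treg cells Tnfrsf4 was lower with KO marrow, at -1.24 (SE 0.25, edgeR adjusted p = 0.00049; 1.32% of genes passed), in the fit of 5 libraries. The levels were 1648, 2111 and 950 CPM with KO marrow, against 1779 and 2569 CPM with WT marrow, and the genotypes overlapped. KO marrow in WT host, with 28 Treg cells, was the lowest of the 5 libraries for Tnfrsf4, Tnfrsf18 and Tnfrsf9, and no fit without it was possible. Its low Tnfrsf4 level enters the host term as a rise and the marrow term as a fall. The host and marrow calls of Tnfrsf4 in Treg cells are therefore not separate results. The Treg cells of the library labelled KO marrow in WT host also held 87.0 CPM of Mtdh (12 UMIs, 95% Poisson interval 45.0 to 152), against 23.9 CPM in intact KO and 9.58 CPM in KO marrow in KO host, while WT marrow Treg cells held 113 and 146 CPM. These 12 UMIs came from 4 of the 28 cells. Their part in the Tnfrsf4 result was not tested, and DESeq2 did not call it (adjusted p = 1).

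Of the fixed list of 42 ligands, related receptors, adaptors and NF-kB genes, 35 were tested in CD8 T cells. With host genotype 5 were higher and 1 was lower, where 1.91% of all genes passed, and the median log2 fold change of the list was 0.22, against -0.01 over all genes. DESeq2 called 3 of the 35. Among the related receptors Ctla4, an inhibitory relative of Cd28, stood at 360, 132 and 224 CPM in KO hosts (intact, KO marrow, WT marrow), against 161, 84.2 and 76.5 CPM in WT hosts (intact, KO marrow, WT marrow) (log2 fold change 1.14, SE 0.21, edgeR adjusted p = 0.0082). The host genotypes overlapped in plain levels, since intact WT lay above KO marrow in KO host. Pdcd1 rose by 0.93 (SE 0.19, edgeR adjusted p = 0.015), without overlap. Cd2, an adhesion receptor of T cells, was the 1 gene that fell, at -0.68 (SE 0.17, edgeR adjusted p = 0.048).

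The other risers were the anti-apoptotic NF-kB targets Bcl2a1d, at 1.34 (SE 0.22, edgeR adjusted p = 0.0030), and Bcl2a1b, at 0.98 (SE 0.22, edgeR adjusted p = 0.031), and the ligand Cd80, at 1.93 (SE 0.47, edgeR adjusted p = 0.048). Cd80, the fifth by adjusted p and named after its values were seen, rested on 2 to 5 UMIs in each WT host. Bcl2a1b and Bcl2a1d are near-identical copies whose reads may be divided between them. No adaptor or signalling gene passed of 11 tested. The list gave no call with host genotype in CD4 T cells (33 tested, 4 at unadjusted p under 0.05), Treg cells (28 tested, 6 at unadjusted p) or NK cells (27 tested, 0 at unadjusted p), and DESeq2 called none there. With marrow genotype CD4 T, Treg and NK cells gave none (2, 6 and 2 at unadjusted p, and none by DESeq2), and the 1 call was Lta, lymphotoxin alpha, in CD8 T cells, at -1.98 (SE 0.35, edgeR adjusted p = 0.0497, just inside the threshold; DESeq2 did not call it), with 12.1, 7.06 and 13.3 CPM with KO marrow in intact KO, KO marrow in KO host and KO marrow in WT host, against 32.2, 48.1 and 31.6 CPM with WT marrow.

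Macrophages, 24198 of the 37992 CD45-positive cells, carried ligands of Tnfrsf9, Cd28, Tnfrsf1b and Icos. Tnfsf9, the ligand of Tnfrsf9, stood at 49.8, 74.5 and 47.8 CPM in KO hosts (intact, KO marrow, WT marrow), against 12.5, 72.6 and 104 CPM in WT hosts (intact, KO marrow, WT marrow), with overlap. Cd86, a ligand of Cd28, lay at 582 and 584 CPM in the intact libraries and 146 to 182 CPM in the transplanted ones, whose counts also came from another Cell Ranger version. Tnf ranged from 30.0 to 133 CPM and Icosl from 10.8 to 15.3 CPM. The ligands of Tnfrsf4, Tnfrsf18 and Cd27 (Tnfsf4, Tnfsf18 and Cd70) stayed at or under 0.461 CPM in macrophages.

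The genes most like each receptor over the 25 sums, among 5722 genes with a mean of at least 20 CPM, are given with Pearson r of log2(CPM + 10) as a description. For Tnfrsf9 they were Rap2a (0.87), Pdcd1lg2 (0.86) and M6pr (0.82). For Tnfrsf4 they were Cd5 (0.95), Syt11 (0.93) and Got1 (0.93), and for Tnfrsf18 Syt11 (0.92), Tspan13 (0.92) and Sdf4 (0.92). Tnfrsf1b was most like Itgav (0.85), Ikzf2 (0.83) and Adam9 (0.83). Icos was most like Aebp2 (0.96), Rora (0.93) and Ubl3 (0.93), Cd28 like Slamf1 (0.91), Trac (0.89) and Slfn1 (0.89), and Cd27 like Pou2f2 (0.79), Trac (0.79) and Itgb2 (0.78). Tnfrsf4 and Tnfrsf18 thus share Syt11, and Cd28 and Cd27 share Trac, the constant region of the T cell receptor alpha chain.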

How the data were processed

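Single-cell RNA-seq (10x Genomics 3′ chemistry, per the labels' protocols) was deposited by the authors as UMI counts per gene and cell, not normalised. Per the file headers the intact libraries came from Cell Ranger 7.0.1 and the transplanted ones from 6.1.1, so this difference cannot be told apart from transplantation. Per the submitters' processing notes the genome was mm10 and Seurat was used. No source used here says if intron reads entered the counts.

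Cells had at least 500 UMIs, 200 genes and at most 15% mitochondrial UMIs. Scrublet's automatic threshold called 4 doublets or fewer per library, so the 6% of cells with the highest score were removed (scanpy 1.11.5). T gates needed 2 UMIs of Cd3d, Cd3e and Cd3g, lineage genes, and at most 0.5% UMIs of other lineages. UMIs were summed per gate and library with at least 10 cells and fitted in edgeR 4.0.16 (TMM, filterByExpr, robust quasi-likelihood test, R 4.3.3) with terms for transplantation, host and marrow, and Benjamini-Hochberg adjustment over all genes tested. The 6 libraries leave 2 residual degrees of freedom, and the intact pair differs in host and marrow together, so additivity is assumed. The SE is the log2 fold change divided by the root of F. Intervals are exact 95% Poisson or Clopper-Pearson and cover counting error only. The host fits of CD8 T and CD4 T cells were run on simulated counts with the same dispersion for every gene. The Treg, NK, between-gate and interaction fits were not simulated. DESeq2 1.42.0, other scalings, filters, gates and left-out libraries were alternatives; the fit without robust estimation, the subset without Mki67 and Top2a and the alternatives of the interaction were added after seeing the data. The receptors and lists were chosen with earlier results of these data known. Besides the receptors, up to 4 list genes per gate, term and direction were named by adjusted p, with the 3 genes most like each receptor. Promoters came from RefSeq, matched by symbol for 5 of 7 receptors. One planned subset of CD8 T cells is not reported here.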

Additional observations from a re-analysis of the deposited data

Results flagged for a closer look

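The host effect on Tnfrsf9 was smaller in CD4 T cells than in CD8 T cells by -1.32 on the log2 scale and smaller in NK cells by -1.50, and that on Tnfrsf4 was smaller in CD4 T cells by -1.76. A test of the difference itself passed for each (edgeR adjusted p = 0.012, 0.0028 and 0.025). That test takes 1 spread per gene over all its gates, and the Tnfrsf9 effect in CD8 T cells fitted alone did not pass (edgeR adjusted p = 0.39). DESeq2 did not call the Tnfrsf9 differences (adjusted p = 0.056 and 0.068), and without KO marrow in WT host their edgeR adjusted p was 0.50 and 0.21.

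Mtdh stood at 87.0 CPM in the Treg cells of the library labelled KO marrow in WT host, between the other KO marrow Treg cells (23.9 CPM in intact KO and 9.58 CPM in KO marrow in KO host) and the WT marrow Treg cells (113 and 146 CPM). Its CD8 T cells held 14.6 CPM. With 1 library per group no sample could be compared with others of its group.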

How the results depend on the processing

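Of 27 receptor tests with host genotype 4 passed. The count was 2 with DESeq2, 2 with edgeR without robust estimation (added after seeing the data), 1 with other-lineage UMIs at most 0.25%, 0 without the transplantation term and 2 of 20 in the 4 transplanted libraries alone; it was 1 to 4 with a library left out. With marrow genotype 1 of 27 passed, against 0 with DESeq2, 0 without the transplantation term, 0 in the transplanted libraries alone, and 0 to 1 with a library left out. Treg cells could not be fitted in the transplanted libraries alone, nor with any library but WT marrow in KO host left out. Between gates 48 of 70 passed, 36 to 46 with a library left out, and of 720 refits of the called pairs 670 kept the call, 50 lost it and 0 reversed. The 3 host differences between gates became 1 with DESeq2, 1 with other-lineage UMIs at most 0.25% and 2 to 4 with a library left out. Tnfrsf4 in CD8 T cells was called in 21 of 23 refits, and in the 6 that left out a library its log2 fold change was 1.63 to 2.40. It was not called without the transplantation term or in CD8 T cells without Pdcd1 and Havcr2 (1.24). In those cells the Tnfrsf18 difference was lost, at -0.029 (the cause was not tested). Over all genes the CD8 host count of 166 was 448 with no filter, 105 with DESeq2, 0 without the transplantation term and 108 to 495 with a library left out. The Treg host count of 111 was 4 with DESeq2, 23 at 0.25%, 54 at 1% and 2 without the transplantation term, and the Treg marrow count of 50 was 5, 19, 23 and 1. No paired analysis was possible because each group has 1 library. Small gates limit the depth: Treg cells of WT marrow in KO host had 22678 UMIs in all.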
